A study of Rattus norvegicus with 12 samples.

Results

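A set of 9 genes of the glucocorticoid pathway was followed in the lungs of rats exposed to cigarette smoke and lipopolysaccharide. They were the receptor Nr3c1, 6 genes that it induces (Zbtb16, Fkbp5, Tsc22d3, Klf9, Sgk1 and Anxa1) and 2 enzymes that interconvert active and inactive glucocorticoid (Hsd11b1 and Hsd11b2). A probe was assigned to a gene when its RefSeq accession carried that symbol, which gave 10 probes for these 9 genes out of 30367 rat probes on the array. Nr3c1 had 2 probes and each other gene had 1. All 10 probes passed the filter on dim signals, along with 21239 probes in all. The 9 genes were chosen from the differences of exposed lungs from control, where Zbtb16 was lower and Hsd11b2 higher, so all values against control are given as a description without a test. Comparisons among the exposed groups did not enter that choice and were tested. They use the same exposed arrays as the choice, however, and are not independent of it.

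The groups were male Sprague–Dawley rats of 8 to 12 weeks, 3 rats per group, and the RNA of the left upper lung lobe of each rat was hybridized to an array of its own. Control rats breathed air and received saline. The CS + LPS group was exposed to cigarette smoke (CS) over weeks and received lipopolysaccharide (LPS), a bacterial cell wall component, into the trachea. The CS + LPS + NaHS group had the same exposure and was injected beforehand with sodium hydrosulfide, which releases hydrogen sulfide (H2S). The CS + LPS + PPG group was injected with propargylglycine, which blocks CTH, an enzyme that forms H2S. No group received NaHS or PPG without the exposure, and a whole lobe contains many cell types, so fewer cells of a type cannot be told apart from less RNA per cell.

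Glucocorticoids are steroid hormones of the adrenal cortex (corticosterone in the rat) that enter cells and bind the receptor encoded by Nr3c1. The bound receptor leaves its chaperones, moves to the nucleus and either activates genes directly or restrains inflammatory transcription factors such as NF-κB. HSD11B1 regenerates active hormone from its inactive keto form, whereas HSD11B2 does the opposite and keeps hormone away from receptors. In lung, glucocorticoids are known for maturing the epithelium and for dampening inflammation.

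Lung identity was checked first. The surfactant genes Sftpc and Sftpb, the club cell gene Scgb1a1 and the alveolar type 1 gene Ager were well above background on all 12 arrays. Control replicate 3 stood apart: over all probes it correlated with the other arrays at r = 0.936 to 0.957, while the other 11 correlated with each other at 0.975 or more. The array slide also divided the groups. All 3 CS + LPS arrays and control replicate 3 lay on slide 2, and the other 8 arrays lay on slide 1. The scan date in the file headers divided the arrays in the same way, so slide below stands for both. Signals below are processed intensities on the log2 scale after subtraction of the 75th percentile of each array, so a difference of 1 is a 2-fold change. Probes differ in how brightly they bind, and only levels of the same gene are compared.

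Promoter sequence shows what the induced genes look like where transcription starts. RefSeq windows on GRCr8, from 250 bases before to 50 bases after a start, were found for 6 of the 9 genes (11 windows, since some genes have several starts), and Zbtb16, Hsd11b1 and Hsd11b2 had none in the table used. The windows of 3 genes that were lower on every exposed array than on every control array are printed 5′ to 3′ on the strand of the gene, with the TATA box TATAAA in capitals. Tsc22d3 had 3 windows, of which the one that held this box is shown. The window of Fkbp5 is chr20:6543506-6543805 on the minus strand, that of Klf9 is chr1:230126396-230126695 on the plus strand, and the one of Tsc22d3 is chrX:109009985-109010284 on the minus strand.
Fkbp5: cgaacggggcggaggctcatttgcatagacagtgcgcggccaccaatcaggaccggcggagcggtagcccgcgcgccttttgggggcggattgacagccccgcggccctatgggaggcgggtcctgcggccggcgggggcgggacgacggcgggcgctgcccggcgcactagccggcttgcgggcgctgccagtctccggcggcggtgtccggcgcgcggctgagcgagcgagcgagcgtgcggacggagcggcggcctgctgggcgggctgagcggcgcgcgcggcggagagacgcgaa
Klf9: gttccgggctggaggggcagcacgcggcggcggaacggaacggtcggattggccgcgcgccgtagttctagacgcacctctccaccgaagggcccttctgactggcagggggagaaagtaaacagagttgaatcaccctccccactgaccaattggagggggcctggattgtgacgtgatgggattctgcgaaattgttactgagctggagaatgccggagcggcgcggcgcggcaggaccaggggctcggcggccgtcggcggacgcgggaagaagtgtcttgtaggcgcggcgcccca
Tsc22d3: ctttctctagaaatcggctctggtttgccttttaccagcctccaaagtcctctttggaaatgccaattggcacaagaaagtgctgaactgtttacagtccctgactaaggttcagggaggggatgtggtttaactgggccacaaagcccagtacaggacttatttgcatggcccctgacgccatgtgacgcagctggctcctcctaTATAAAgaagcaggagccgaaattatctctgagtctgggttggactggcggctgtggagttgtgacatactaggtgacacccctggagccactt
The windows of Fkbp5 and Klf9 had a GC content of 77% and 65.3% and held no TATAAA, and neither did the other 2 windows of Tsc22d3 (73% and 52% GC). The printed window of Tsc22d3 (50.7% GC) held 1, which began 44 bases before the start, and 4 of the 11 windows of these genes held one. On the strand of the gene, TATAAA was present in 8.8% of 33469 windows of all genes. The receptor binds a palindrome of the half-site AGAACA and its reverse complement, with any 3 bases between them. With both strands searched, the palindrome was in 0.0149% of all windows and the half-site, which also lies within each palindrome, in 20.7%. Neither was found in the 11 windows of these genes, which says only that these letters are not in these windows.

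The receptor itself differed little. Nr3c1 had log2 signals of 9.89, 9.91 and 9.44 in control, 9.85, 9.83 and 10.08 in CS + LPS, 9.73, 9.79 and 9.65 with NaHS and 9.83, 10.01 and 9.76 with PPG. The control values span the exposed ones except for 2 arrays, and control replicate 3 was the lowest of the 12. The difference from control was 0.17 in CS + LPS, -0.02 with NaHS and 0.12 with PPG, and without control replicate 3 it was 0.02, -0.18 and -0.03. The dimmer Nr3c1 probe went the other way with NaHS: its differences were 0.33, 0.35 and 0.46, and on it none of the 3 exposed groups overlapped with control.

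Zbtb16 encodes PLZF, a zinc finger transcription factor that is among the most strongly glucocorticoid-induced genes. Its log2 signals were 9.48, 8.98 and 9.67 in control, and all 9 exposed arrays lay below the lowest of these. In CS + LPS they were 8.31, 3.83 and 4.99, and the array at 3.83 was the only one of the 12 that was not well above background. With NaHS they were 7.84, 6.39 and 5.53, and with PPG 7.34, 5.45 and 7.93. The control rats were close to each other (SD 0.36), while the exposed groups were widely spread (SD 2.32 in CS + LPS, 1.17 with NaHS and 1.29 with PPG). Mean signals were 12.7-fold lower than control in CS + LPS, 6.94-fold lower with NaHS and 5.55-fold lower with PPG, which are differences of -3.67, -2.79 and -2.47. The order of the group means was therefore control, PPG, NaHS and CS + LPS, and the 3 exposed groups overlapped. The size depended on the settings. In CS + LPS, where 2 of 3 arrays were well above background, the difference was -4.97 without replicate 1, the exposed rat nearest to control, -2.73 without replicate 2 and -2.43 with normexp, another background correction. It ran from -3.42 (without NaHS replicate 1) to -2.20 (normexp) with NaHS and from -2.99 (without PPG replicate 3) to -1.75 (without PPG replicate 2) with PPG.

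Fkbp5 encodes FKBP51, a chaperone partner that is induced by the receptor and in turn lowers its affinity for hormone. Its signals were 13.93, 13.16 and 13.15 in control, 12.80, 11.32 and 10.84 in CS + LPS, 11.98, 11.95 and 11.34 with NaHS and 12.04, 11.95 and 12.60 with PPG. Again all 9 exposed arrays were below all 3 controls, and CS + LPS replicate 1 was the exposed array nearest to them. Mean signals were 3.39-fold, 3.15-fold and 2.32-fold lower than control in the CS + LPS, NaHS and PPG groups.

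Tsc22d3 encodes GILZ, a leucine zipper protein that carries part of the anti-inflammatory action of glucocorticoids. Its signals were 14.84, 14.23 and 15.11 in control, 14.05, 13.70 and 13.57 in CS + LPS, 13.43, 13.72 and 13.40 with NaHS and 13.43, 13.87 and 14.04 with PPG. No exposed array reached the lowest control. The differences were -0.95, -1.22 and -0.95 for CS + LPS, NaHS and PPG, so the fold change was over 2 with NaHS only, and the gaps among the 3 groups were within their spread.

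Klf9, a Krüppel-like transcription factor that responds to glucocorticoid and thyroid hormone, followed the same order of control above exposed. It had signals of 13.49, 13.64 and 13.36 in control, 13.29, 12.52 and 12.42 in CS + LPS, 12.89, 13.05 and 12.83 with NaHS and 12.95, 12.69 and 12.54 with PPG. The highest exposed array, CS + LPS replicate 1, was only just below the lowest control. The differences from control were -0.76, -0.57 and -0.77.

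Sgk1 and Anxa1 did not share this pattern. Sgk1 encodes a kinase that regulates sodium channels, and its signals were 11.18, 11.32 and 10.57 in control, 11.11, 11.08 and 11.47 in CS + LPS, 11.15, 11.09 and 11.20 with NaHS and 10.88, 11.00 and 10.95 with PPG. Its differences from control were 0.19, 0.12 and -0.08 (without control replicate 3, -0.03, -0.10 and -0.31), and each exposed group overlapped with control. Anxa1 encodes annexin A1, a mediator of resolution that is also abundant in neutrophils and macrophages. Its signals were 15.69, 15.71 and 15.30 in control, 15.89, 16.20 and 15.90 in CS + LPS, 16.02, 15.69 and 15.66 with NaHS and 16.09, 16.18 and 16.48 with PPG. Here 7 of 9 exposed arrays were above all controls, the 2 others being NaHS arrays, and the differences were 0.43, 0.22 and 0.68, or 0.30, 0.09 and 0.55 without control replicate 3.

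The 2 enzymes differed from each other. Hsd11b2 had signals of 7.90, 7.52 and 8.59 in control, 9.88, 9.29 and 9.39 in CS + LPS, 9.38, 7.51 and 8.84 with NaHS and 10.13, 9.37 and 8.82 with PPG. Of the 9 exposed arrays, 8 were above all controls, and NaHS replicate 2 was below all of them. Mean signals were 2.86-fold higher than control in CS + LPS, 1.49-fold higher with NaHS and 2.71-fold higher with PPG (differences of 1.51, 0.57 and 1.44). With slide as a block, which sets the CS + LPS arrays against control replicate 3 alone, the difference for CS + LPS was 0.93. The value for NaHS was 0.87 without control replicate 3, 1.11 without NaHS replicate 2 and 0.17 without NaHS replicate 1.

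Hsd11b1 had signals of 13.88, 14.18 and 12.28 in control, 14.17, 14.12 and 14.11 in CS + LPS, 14.29, 13.97 and 14.24 with NaHS and 13.96, 14.21 and 14.31 with PPG. Only control replicate 3 stood away from the other 11 arrays. The differences from control were 0.69, 0.72 and 0.71 with that array and 0.10, 0.13 and 0.13 without it. With slide as a block, the difference of CS + LPS from control was 1.86.

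**Figure D1:**
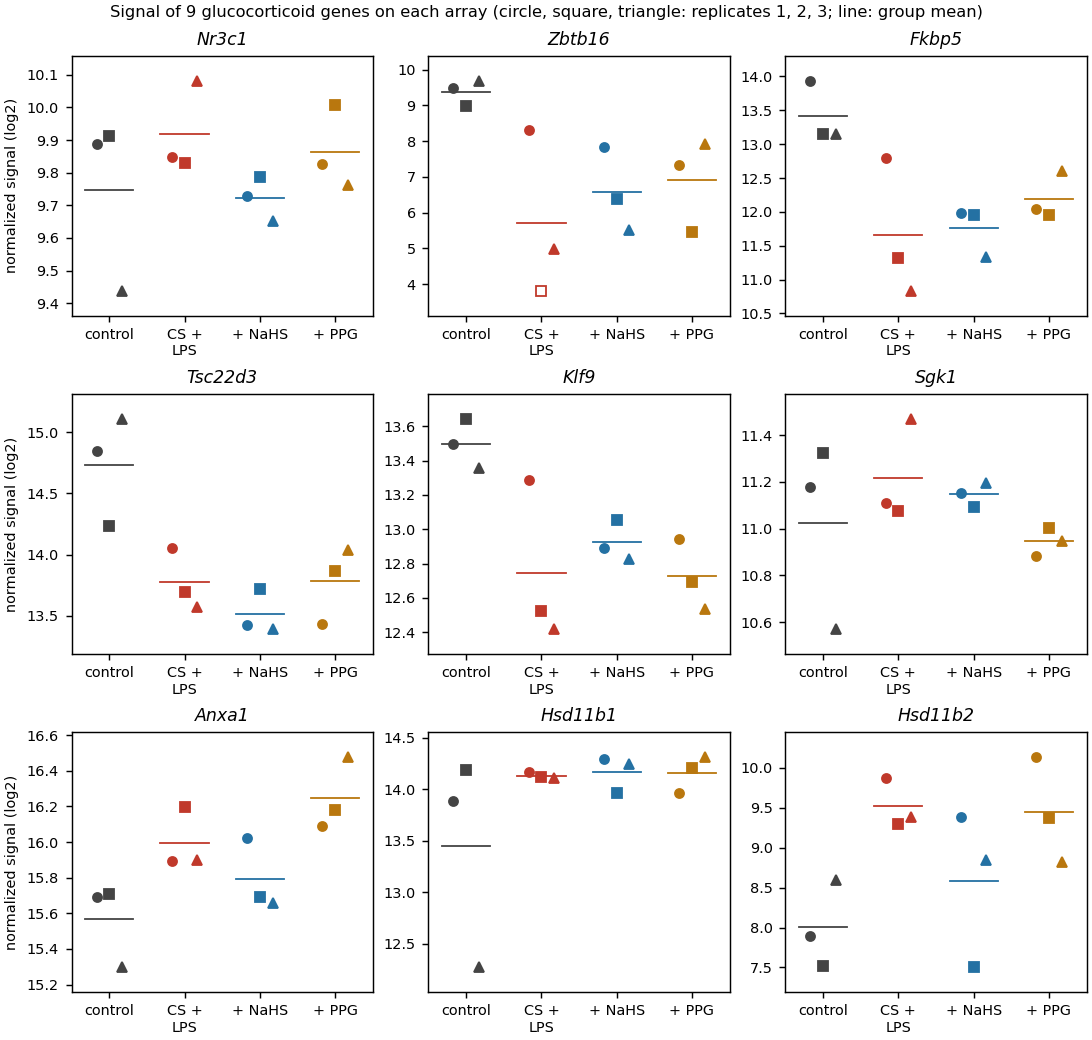
Normalized signal (log2) of the 9 genes on each of the 12 arrays by group, with an own vertical scale for each gene. Circles, squares and triangles are replicates 1, 2 and 3, lines are group means, and the open square is the 1 Zbtb16 value that was not well above background. Zbtb16, Fkbp5, Tsc22d3 and Klf9 have every exposed array below every control array, Hsd11b2 has 8 of 9 exposed arrays above control, and control replicate 3 is the lowest array for Hsd11b1.

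Over the 9 genes, 4 (Zbtb16, Fkbp5, Tsc22d3 and Klf9) had all 9 exposed arrays below all 3 controls, and none had all 9 above. Of all probes tested, 3.68% were below control on all exposed arrays and 5.2% above. Being below all 3 controls, these 4 genes are of necessity also below controls 1 and 2, so leaving out control replicate 3 is no check here. In CS + LPS, 6 of the 9 genes did not overlap with control, with NaHS 4 and with PPG 6, where 25.2%, 24.8% and 33.1% of all probes did not. In CS + LPS, 3 of the 9 genes differed from control by a fold change of at least 2 (Zbtb16, Fkbp5 and Hsd11b2), against 5.89% of all probes. With NaHS there were 3 (Zbtb16, Fkbp5 and Tsc22d3; 4.09% of all probes) and with PPG 3 (Zbtb16, Fkbp5 and Hsd11b2; 5.6%). Tsc22d3 lay close to that limit in the other 2 groups. The count for CS + LPS was 5 without control replicate 2 and 5 without CS + LPS replicate 1, and the count for PPG was 5 without control replicate 2. These contrasts chose the genes and share their control rats, so nothing is read from these counts.

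**Figure D2:**
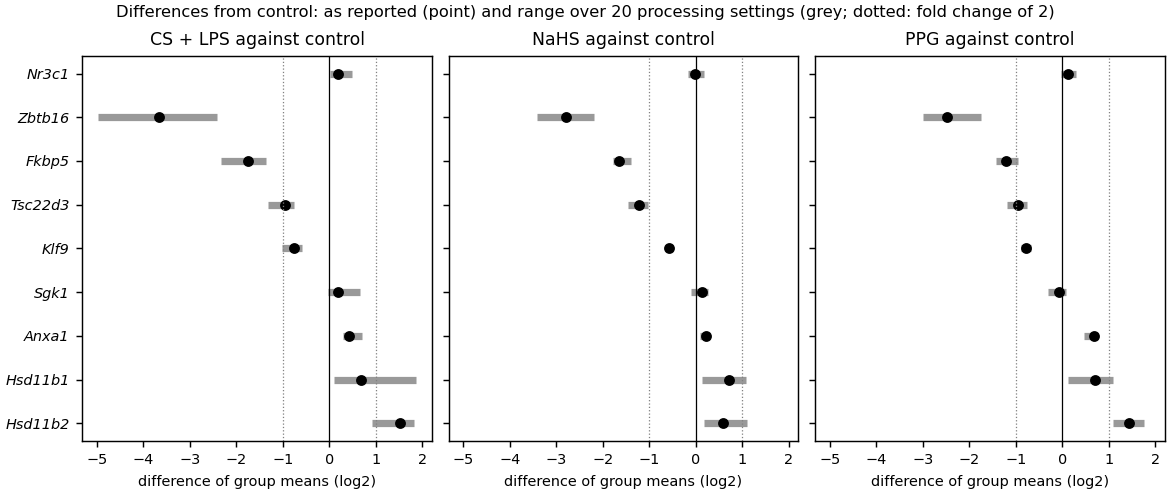
Difference of group means from control (log2, horizontal axis) for each gene in the 3 exposed groups. Points are the values given in the text, grey bars the range over 20 ways of processing, with each array left out in turn among them, and dotted lines a fold change of 2. The bars of Zbtb16, Fkbp5, Tsc22d3 and Klf9 stay below 0 in all 3 groups and that of Hsd11b2 above 0, while that of Hsd11b1 in CS + LPS runs from 0.10 to 1.86.

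Whether an H2S donor or a blocker of H2S formation altered these genes was asked by comparing the treated groups with CS + LPS. DE meant a fold change of at least 2 with an unadjusted p under 0.05 in the linear model of limma. None of the 9 genes was DE with NaHS, where 1.71% of all probes were, or with PPG, where 2.06% were. No gene of the 9 passed at an adjusted p under 0.05 (0.598% and 0.518% of all probes) or at an unadjusted p under 0.05 (9.66% and 10.5%). Intervals were wide for the genes that varied most among rats. Zbtb16 was 0.88 higher with NaHS than in CS + LPS (95% interval -1.40 to 3.16, adjusted p = 0.906) and 1.20 higher with PPG (-1.08 to 3.48, adjusted p = 0.726). These intervals include no change as well as much of the gap to control. Fkbp5 differed by 0.10 with NaHS (-0.87 to 1.08) and by 0.54 with PPG (-0.43 to 1.52). The calls for both depended on CS + LPS replicate 1: without it, Zbtb16 was DE with NaHS (2.18, adjusted p = 0.417) and with PPG (2.50, adjusted p = 0.391), and Fkbp5 was DE with PPG (1.12, adjusted p = 0.316).

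Hsd11b2 differed by -0.94 with NaHS from CS + LPS (-1.99 to 0.10, adjusted p = 0.589), and 2 of the 3 NaHS arrays were below all CS + LPS arrays. With PPG it differed by -0.08 (-1.13 to 0.97). Without NaHS replicate 1 the difference with NaHS was -1.34 and Hsd11b2 was DE (adjusted p = 0.451), and without NaHS replicate 2 it was -0.41. The intervals of Klf9, Tsc22d3, Sgk1, Anxa1 and Nr3c1 lay within 1 on either side of 0 in both comparisons. Among them, Nr3c1 with NaHS and Sgk1 with PPG did not overlap with CS + LPS, both being lower (differences of -0.20 and -0.27), where 7.89% and 8.28% of all probes were lower without overlap. The dimmer Nr3c1 probe overlapped with CS + LPS and had differences of 0.019 with NaHS and 0.12 with PPG, against -0.20 and -0.05 for the brighter one.

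The treated groups and the CS + LPS group lay on different slides, so treatment and slide cannot be told apart within them. Only the controls spanned both slides, and with slide as a block the estimate rests on control replicate 3. In that fit Hsd11b1 was DE, with a difference of -1.72 for NaHS (adjusted p = 0.00322) and -1.73 for PPG (adjusted p = 0.00294), while the plain difference between these groups was 0.03 in each. In the same fit 19.9% and 19.4% of all probes were DE, against 1 of the 9 genes in each comparison. Sgk1 (-0.75 and -0.95) and, with NaHS, Nr3c1 (-0.66) had an adjusted p under 0.05 in it without reaching a fold change of 2, where 23% of all probes with NaHS and 22.5% with PPG had such a p. The difference of Hsd11b2 with NaHS from CS + LPS was -0.058 in that fit. Whether slide, scan date, control replicate 3 as a rat, or its array set these values was not tested.

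NaHS and PPG act on H2S in opposite directions, and their groups shared slide 1. Between them none of the 9 genes was DE, against 0.518% of all probes. Anxa1 differed by -0.46 between NaHS and PPG (95% interval -0.84 to -0.08, adjusted p = 0.566) and was the only gene of the 9 with an unadjusted p under 0.05, which 8.7% of all probes had. That p was over 0.05 with quantile normalization (-0.23) and without NaHS replicate 2 (-0.41), NaHS replicate 3 (-0.39) or PPG replicate 3 (-0.35). At an adjusted p under 0.05 there was none of the 9 and 0% of all probes. All 3 of its NaHS arrays were below all 3 PPG arrays, where 13.2% of all probes were lower without overlap. Sgk1 did not overlap either and was 0.20 higher with NaHS (-0.21 to 0.62), where 12% of all probes were higher without overlap. Hsd11b2 differed by -0.86 (-1.91 to 0.18, adjusted p = 0.611). It was DE without NaHS replicate 1 (-1.26) and without PPG replicate 3 (-1.17), with adjusted p = 0.515 and 1. Zbtb16 differed by -0.32 (-2.60 to 1.96) and Fkbp5 by -0.44 (-1.41 to 0.53). A p above the threshold does not show that the treatments act alike.

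**Figure D3:**
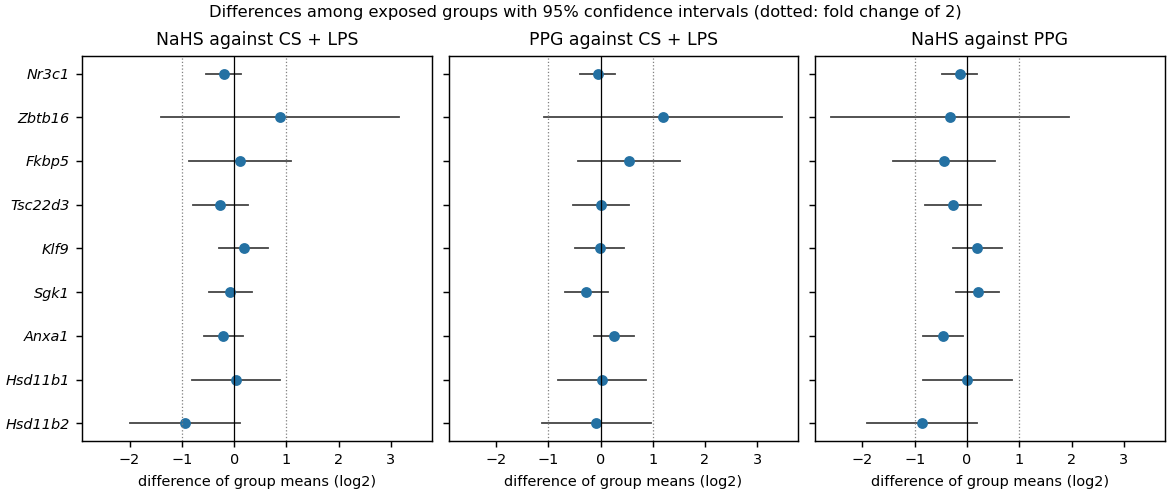
Difference of group means (log2, horizontal axis) for the 9 genes in the comparisons among exposed groups, with 95% confidence intervals from limma over 3 rats per group and dotted lines at a fold change of 2. All intervals include 0 but that of Anxa1 for NaHS against PPG, and the intervals of Zbtb16 are the widest.

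Genes with the most similar pattern were looked up for the 2 genes that named the set. Over the 12 arrays, and among 10238 genes well above background on all of them, the 5 genes with the highest Pearson correlation with Zbtb16 were Fam13a (r = 0.94), Fkbp5 (0.90), Espn (0.90), Sgcd (0.89) and Cdkn1c (0.89). Fkbp5 was thus in place 2, and within the 9 exposed arrays alone its correlation with Zbtb16 was 0.84. Klf9 was in place 51 (r = 0.80) and Tsc22d3 in place 207 (r = 0.71). The correlation of Klf9 within the exposed arrays was 0.61 and that of Tsc22d3 0.27. Fam13a, the closest gene, had mean signals of 10.89 in control and 9.63, 9.74 and 9.84 in CS + LPS, NaHS and PPG, and its correlation within the exposed arrays was 0.98.

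For Hsd11b2 the closest of 10237 genes were Rab26 (r = 0.92), Pno1 (0.86), Triqk (0.85), Osgep (0.85) and Slc16a7 (0.84). Rab26 encodes a small GTPase of secretory vesicles, and its means were 9.06 in control, 9.52 in CS + LPS, 9.20 with NaHS and 9.56 with PPG. The correlation of Hsd11b2 with Hsd11b1 was 0.16 and that with Zbtb16 was -0.33. Arrays share group, slide and overall signal, so these correlations describe the 12 arrays only.

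**Figure D4:**
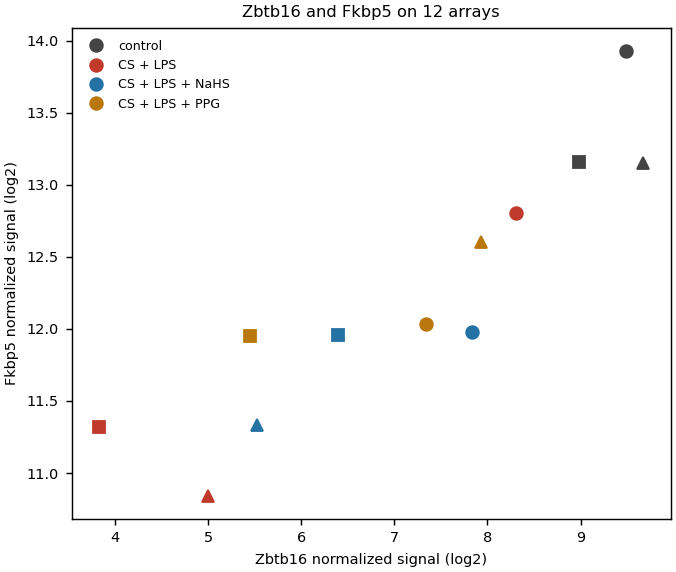
Fkbp5 against Zbtb16 normalized signal (log2 on both axes) on the 12 arrays, with colours for groups and circles, squares and triangles for replicates 1, 2 and 3. The 3 control arrays lie at the top right, CS + LPS replicate 1 is the exposed array with the highest values of both genes, and r over all arrays is 0.90.

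Other genes of the pathway were read from 4 lists, drawn up with results of these rats known. Their calls and p-values against control are therefore given as a description. Of 27 further genes that glucocorticoids induce, 24 were tested, and Mt2 (no probe by RefSeq), Tat and Pck1 (dim) were not. Against control, 21 of the 24 were lower in CS + LPS, 19 with NaHS and 20 with PPG, with median differences of -0.46, -0.34 and -0.63. The medians of all probes were -0.04, 0.00457 and -0.00948. Passing the test, 3 fell and 1 rose in CS + LPS (4.59% of all probes were DE), 2 fell and 1 rose with NaHS (2.67%), and 5 fell and 1 rose with PPG (4.38%). Without control replicate 3 the lower genes numbered 20, 18 and 18.

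Pdk4, a kinase that restrains the use of glucose in mitochondria, fell in all 3 groups, with differences of -1.60 (SE 0.41, adjusted p = 0.0696), -1.23 (adjusted p = 0.204) and -1.99 (adjusted p = 0.0341). Its signals were 6.90, 6.73 and 7.76 in control and 4.58 to 6.35 on the exposed arrays. Pdk4 was not well above background on every array, so the sizes of these falls rest on low signals. Without control replicate 3 the difference with NaHS was -0.91 and no longer DE, and with normexp it was -0.85 and not DE either. The clock gene Per2 fell in CS + LPS (-1.42, adjusted p = 0.164) and with NaHS (-1.70, adjusted p = 0.206), and the latter call was lost without control replicate 3 (-1.26) or NaHS replicate 1 (-1.47). Errfi1, an inhibitor of EGF receptor signalling, fell with PPG (-1.60, adjusted p = 0.0208), and its differences in CS + LPS and with NaHS were both -0.87. Also DE with PPG were Angptl4, an inhibitor of lipoprotein lipase (-1.66, adjusted p = 0.0834), Zfp36, which destabilizes cytokine mRNAs (-1.03, adjusted p = 0.0485), and Crispld2, a secreted lung protein (-1.02, adjusted p = 0.0434). In CS + LPS and with NaHS they were lower too, without being DE. These differences were -1.02 and -1.06 for Angptl4, -0.39 and -0.36 for Zfp36, and -0.85 and -0.34 for Crispld2. Cd163, the haemoglobin scavenger receptor of macrophages, fell in CS + LPS (-1.40, adjusted p = 0.161). That call was lost without any 1 of the 3 control arrays (-1.44 to -1.34), without CS + LPS replicate 2 (-1.39) and without replicate 3 (-0.80). Cd163 differed by -1.22 with NaHS and by -0.60 with PPG and was DE in neither. Lcn2, a neutrophil and epithelial protein that binds bacterial siderophores, was the gene that rose in each group, by 1.41, 1.48 and 1.77, with adjusted p = 0.0145, 0.0363 and 0.00716. It is also known to be induced by inflammatory signals.

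Of 13 genes that glucocorticoids repress, 11 were tested, and Il6 (dim) and Csf2 (no probe) were not. Higher than control were 9 in CS + LPS, 11 with NaHS and 9 with PPG, with medians of 0.37, 0.60 and 0.63. By the DE rule 3, 2 and 4 of them rose and none fell, where 4.59%, 2.67% and 4.38% of all probes were DE. Without control replicate 3 the numbers that rose were 1, 2 and 2, a setting in which no count over all probes was made. With normexp background correction they were 0, 0 and 1, where 448, 252 and 385 of all 21239 probes were DE. Sele, the endothelial selectin that slows leukocytes, rose by 1.81, 2.33 and 2.34 (adjusted p = 0.0251, 0.0363 and 0.0156), and its control signals of 4.69, 5.01 and 4.61 were all below the lowest exposed value of 6.01. With normexp its differences were 0.37, 0.82 and 0.89, and none was DE. Sele was not well above background on every array, and its control signals were low. The size of its rise therefore depended on the background correction. Ccl2, a chemokine for monocytes, rose by 1.32 in CS + LPS (adjusted p = 0.147) and by 1.85 with PPG (adjusted p = 0.0597). The first call was lost without control replicate 2 (1.28) or 3 (1.30) or CS + LPS replicate 1 (1.33) or 2 (1.15). Ccl2 was also DE between NaHS and PPG (-1.27, adjusted p = 0.566), the only DE gene of these lists among exposed groups, and was not without NaHS replicate 3 (-0.80), PPG replicate 1 (-1.18) or PPG replicate 3 (-0.78). That call was also lost in a fit within slide 1, with only the 2 groups compared and by the methods' t-test. Mmp9, a gelatinase, rose by 1.09 in CS + LPS (adjusted p = 0.154), by 1.12 with NaHS (adjusted p = 0.243) and by 1.01 with PPG (adjusted p = 0.149). The first was lost without control replicate 1 (1.09) or 3 (0.87) or CS + LPS replicate 2 (0.83), the second without control replicate 3 (0.90) or NaHS replicate 1 (1.07) or 2 (0.79). Mmp9 also was not well above background on every array, and its control signals were 4.55, 4.99 and 4.11. With normexp its difference was -0.00066 in CS + LPS and 0.051 with NaHS, so these rises were not seen under that correction. The value with PPG was not recomputed. Tnf, the inflammatory cytokine, rose by 1.03 with PPG (adjusted p = 0.0474), and its fold change was under 2 without control replicate 3 (0.97), PPG replicate 1 (0.87) or PPG replicate 3 (0.86).

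The receptor machinery held 9 tested genes of 14: the mineralocorticoid receptor Nr3c2, chaperones and coregulators. All 9 were lower than control in each exposed group, with medians of -0.35, -0.35 and -0.55. Only Ncoa2, a coactivator, was DE. It fell in CS + LPS (-1.04, adjusted p = 0.0973), where 4.59% of all probes were DE. That call was lost without control replicate 3 (-0.60) or CS + LPS replicate 1 (-0.98). Without control replicate 3, the numbers lower than control were 9, 7 and 8 of the 9. Hspa8, the constitutive HSP70 chaperone, differed by -0.50, -0.60 and -0.56 and did not reach a fold change of 2. Of 8 genes of steroid supply and clearance, 3 were tested and none was DE, and the adrenal enzymes Cyp11a1, Cyp11b1 and Cyp11b2 were dim. Because these lists were drawn up with results of these rats known, their medians, calls and p-values against control are descriptions.

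**Figure D5:**
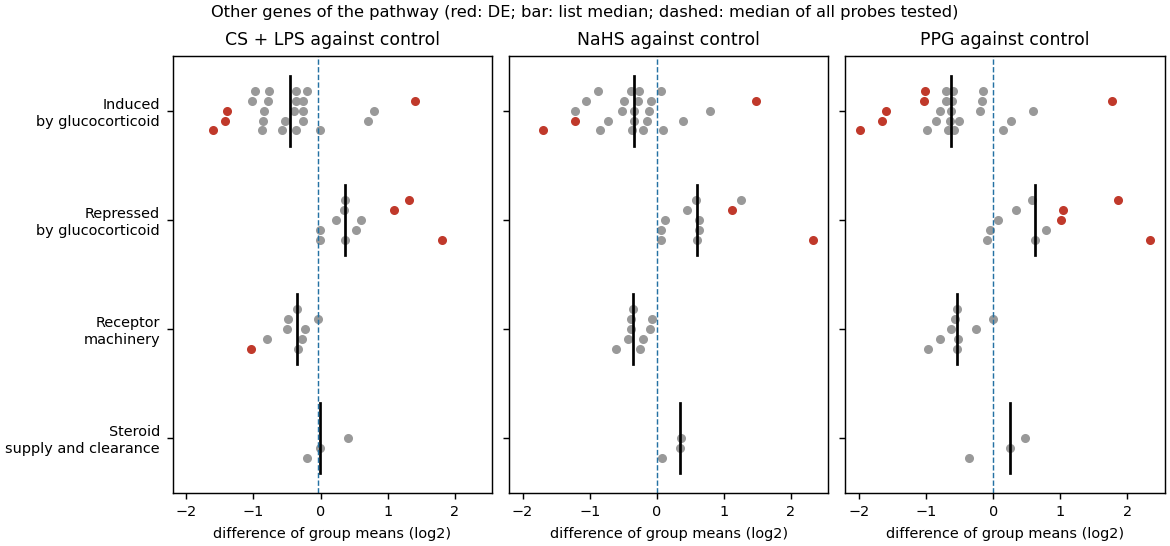
Difference from control (log2, horizontal axis) of each tested gene in 4 lists, for CS + LPS, NaHS and PPG. Each point is a gene, red points are DE, black bars are list medians, and dashed lines are the medians of all probes tested. Most induced genes and all receptor machinery genes lie to the left of 0, most repressed genes to the right, and Lcn2 is the red point on the right among the induced genes.

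Markers of some other cells moved with the exposure. The sums for alveolar type 1, ciliated, smooth muscle, heart, fat, skeletal muscle and adrenal cortex lists overlapped with control in every exposed group. Those of alveolar type 2, endothelium and T and NK cells did so in some exposed groups only. Heart sums ran from 5914 to 80765 in control and from 35761 to 62853 with PPG. Fat sums ran from 3594 to 13072 in control and from 9494 to 13192 with PPG. For macrophages, 4 of 5 listed genes were on the array, Cd68, Mrc1 and Cd14 were well above background on all 12 arrays and Marco on 1. Their summed linear signal on the control arrays ranged from 5250 to 10301, below every exposed array: the range was 15554 to 22813 for CS + LPS, 15745 to 20038 for NaHS and 15886 to 19381 for PPG. B cell markers (3 of 5 genes, all well above background) summed to 2316 to 3418 in control and 3904 to 6899 on the exposed arrays. Neutrophil markers (4 of 5 genes, all well above background) ranged between 7056 and 18403 on the control arrays, between 15223 and 32216 for CS + LPS, between 15828 and 31851 for NaHS and between 24409 and 34427 for PPG. Genes of airway secretory cells (4 of 5) summed to 276102 to 571689 in control and to 231939 to 283348 in CS + LPS. With NaHS they summed to 236084 to 296420 and with PPG to 250202 to 358803, and each exposed group overlapped with control. A list of kidney tubule genes held Aqp2, Scnn1b, Scnn1g and Umod, and HSD11B2 is best known from the collecting duct of the kidney. These 4 genes were well above background on all 12 lung arrays, and their sum is not a measure of kidney cells. It was 5694 to 8396 in control and 3336 to 4402 in CS + LPS, where Hsd11b2 was higher than control. With NaHS (4431 to 6538) and PPG (4679 to 5754) this sum overlapped with control. The part of these cells in the values of Zbtb16, Fkbp5, Anxa1, Hsd11b2 and the lists was not tested.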

How the data were processed

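The authors scanned single-colour Agilent rat arrays with Feature Extraction 10.7.3.1, per the file headers, and deposited the processed signal of each spot, which is a linear intensity after background subtraction. The lists of DE probes that the authors deposited hold their fold changes and p-values and were not used, nor were the 120 columns given for each array in them. Here the log2 signal of the spots of a probe that were not outliers (446 to 704 outlier spots per array) was averaged and scaled to the 75th percentile of its array, with the mean percentile added back. A probe was kept where some group had all 3 of its arrays well above background (66.0% to 75.5% of probes were so on single arrays). The number of arrays limits the precision. Nothing in the labels ties replicates of different groups to each other. Symbols came from RefSeq accessions in a gene table of assembly GRCr8 and covered 17514 probes; 12853 had none. Computations used R 4.3.3, limma 3.58.1 and version 1.17.8 of the package data.table. The linear model was fitted to all 12 arrays and p-values (two-sided) were adjusted by Benjamini-Hochberg over all 21239 probes; the fit was tested on simulated data. The most intense probe stood for a gene, and another was given where its direction differed. From the other lists, the up to 3 DE genes with the lowest p per list and comparison were named, and 5 genes by correlation; Per2 in CS + LPS, Angptl4, Zfp36, Crispld2, Mmp9 with PPG and Hspa8 were added after their values were seen and were not recomputed under alternatives. The 9 genes and all lists were chosen with earlier results of these data known. Alternatives were quantile normalization, another percentile, normexp (offset 50, on the median signal), outlier spots kept, other filters, slide or replicate number as a block, the methods' t-test, only the groups compared, the mean over probes, and leaving out each array.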

Additional observations from a re-analysis of the deposited data

How the results depend on the processing

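Against control, Zbtb16, Fkbp5, Tsc22d3, Klf9, Hsd11b2, Hsd11b1 and Anxa1 kept their direction in 20 of 20 settings in each comparison. Sgk1 kept it in 19, 17 and 19 and Nr3c1 in 20, 16 and 17 (CS + LPS, NaHS and PPG). Part of these settings cannot change a difference. They are leaving out an array of a group not compared, the replicate block and, for a gene with 1 probe, the mean over probes. Zbtb16, Fkbp5, Tsc22d3 and Klf9 had every exposed array below every control, so leaving out arrays or fitting by slide cannot change their sign. For NaHS and PPG against control, slide as a block gave the same difference as leaving out control replicate 3. The counts therefore overstate how far direction was tried. With each array left out in turn, the members with a fold change of at least 2 numbered 3 to 5 in CS + LPS and 2 to 5 with PPG. On all arrays, 5.89% and 5.6% of all probes had such a fold change. The members that were DE numbered 0 to 1 for NaHS against CS + LPS, 0 to 2 for PPG against CS + LPS and 0 to 1 for NaHS against PPG. On all arrays, 1.71%, 2.06% and 0.518% of all probes were DE in these comparisons. With slide as a block, 1 member was DE with NaHS and 1 with PPG against CS + LPS (19.9% and 19.4% of all probes were), and the other pathway genes DE in any comparison were 22 in place of 13. With normexp they were 8. No share of all probes DE in any comparison was computed, so nothing is read from these counts of pathway genes. Counts over all probes moved too: for CS + LPS against control, 4824 were DE with slide as a block and 448 with normexp, in place of 974. The cause was not tested.

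Small differences changed sign. With slide as a block, NaHS against CS + LPS was -0.28 for Fkbp5, 0.30 for Tsc22d3, -1.72 for Hsd11b1 and -0.030 for Klf9, and PPG against CS + LPS was -1.73 for Hsd11b1, 0.81 for Hsd11b2 and -0.15 for Anxa1. PPG against CS + LPS was -0.022 for Tsc22d3 and -0.013 for Hsd11b1 with quantile normalization, -0.071 for Tsc22d3 with normexp, 0.0019 for Klf9 when the percentile was taken over probes detected on every array, and 0.035 for Nr3c1 with the mean over its probes. Against control with normexp, Mmp9 was -0.00066 in CS + LPS and 0.051 with NaHS, and Pdk4 with NaHS (-0.85), Ncoa2 (-0.91) and Ccl2 (0.90) in CS + LPS and Tnf with PPG (0.84) were no longer DE either. The calls of Pdk4, Cd163 and Ncoa2 in CS + LPS and of Per2 and Mmp9 with NaHS were lost by the methods' t-test. Slide as a block removed those of Cd163 and Ccl2 in CS + LPS, of Pdk4, Per2 and Mmp9 with NaHS and of Tnf with PPG. Ncoa2 was no longer DE with quantile normalization (-0.90), nor was Mmp9 in CS + LPS with outlier spots kept (0.99). With each array left out, NaHS against CS + LPS ran from -0.30 to 0.68 for Fkbp5, -0.027 to 0.13 for Hsd11b1, -0.14 to 0.054 for Sgk1 and -0.064 to 2.18 for Zbtb16. PPG against CS + LPS ran from -0.048 to 0.13 for Hsd11b1, -0.42 to 0.23 for Hsd11b2, -0.18 to 0.25 for Klf9, -0.13 to 0.027 for Nr3c1 and -0.12 to 0.18 for Tsc22d3. NaHS against PPG ran from -0.092 to 0.11 for Hsd11b1 and -1.05 to 0.21 for Zbtb16.

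Replicate numbers did not pair the arrays: 2 of 18 correlations of deviations between same-numbered arrays were over 0.1. With the replicate block, 0 members were DE in any of the 3 comparisons among exposed groups, and the probes with an adjusted p under 0.05 against control numbered 79 in place of 433 for CS + LPS, 2 in place of 21 for NaHS and 32 in place of 979 for PPG. By the methods' t-test, DE probes against control numbered 443, 278 and 498 in place of 974, 568 and 930 (1, 0 and 0 after adjustment), and 0 members were DE among exposed groups. For NaHS against PPG, 2 members had an unadjusted p under 0.05 by that test, as did 3008 of all 21239 probes. With normexp, DE probes against control were 448, 252 and 385, and with slide as a block 4824 in CS + LPS. Among DE probes in CS + LPS, 36% were higher, and 61.4% with quantile normalization.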
